A study of Mus musculus with 15 samples.

Results

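Alternative activation is the state that macrophages and related myeloid cells enter under interleukin-4 (IL-4) or interleukin-13 (IL-13). The 9 genes described here are classic transcripts of that state in the mouse. They were chosen by name, with earlier results of these data known. Mrc1 and Mgl2 encode lectin receptors, Chil3 and Retnla secreted proteins, and Ccl17, Ccl22 and Ccl24 chemokines. Mmp12 encodes a protease and Tfec a transcription factor. The 9 members are among 22180 genes that had a probe set listed with a single gene symbol, and each had 1 such probe set. The question followed here is how these genes stood in myeloid-derived suppressor cells (MDSC) grown with IL-13, set against mobilised myeloid cells that were not grown with it.

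RNA of 15 mouse samples was measured on single-colour Affymetrix arrays, 1 array per sample and 3 per group, with 6 ug of total RNA going into each labelling. The 5 groups all carry the strain label C57BL/6. MDSC were Ly6C+CD11b+ cells obtained from bone marrow cultured with G-CSF, GM-CSF and IL-13. GFE were CD11b+CD34+ spleen cells without lineage markers, taken from mice treated with G-CSF, the cytokine that mobilises progenitors and neutrophils, and then kept for 3 days in StemSpan medium with stem cell factor (SCF) and Flt3 ligand. GFK were the same kind of spleen cells, not cultured, from G-CSF-treated mice labelled as knockouts of inducible nitric oxide synthase (iNOS, the product of Nos2). RB and GFW were labelled as uncultured CD11b+CD34+ lineage-negative spleen cells of G-CSF-treated wild-type mice, in 2 sets whose labels differ in the title alone. The lineage markers removed were CD4, CD8, Ly6G, B220 and Ter119. The MDSC cultures combined 3 cytokines, so IL-13 cannot be told apart from GM-CSF, G-CSF or culture itself. The other groups came from the spleen of G-CSF-treated mice and were sorted by a different set of antigens. Tissue, treatment of the mice and sort thus cannot be told apart from IL-13 either. The labels do not say whether the arrays of a group came from separate mice or cultures, or whether mice were pooled, so a p-value reflects variation among these arrays, some of which could be technical. Monocytes and monocyte progenitors of untreated mice were not analysed here.

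IL-4 binds the IL-4 receptor alpha chain, which pairs with the common gamma chain or with the IL-13 receptor alpha 1 chain, and IL-13 binds the second of these receptors. Janus kinases on the receptor phosphorylate STAT6, which enters the nucleus and binds DNA at palindromes whose arms read TTC and GAA. In macrophages this raises scavenger and lectin receptors, chitinase-like and resistin-like proteins and chemokines that draw T helper 2 cells and eosinophils, and it works beside the factors PU.1, IRF4 and PPAR gamma. In MDSC cultures IL-13 is added to strengthen suppressive function.

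Values are log2 signals, so 1 unit is a doubling. Array medians lay between 5.52 and 5.72. The 40th percentile of each array, between 5.34 and 5.58, served as a background level. A gene was tested if it exceeded that level on at least 3 arrays, which kept 14822 genes, among them 8 of the 9 members. Retnla lay under it on all 15 arrays. Mgl2, Ccl17 and Mmp12 passed through the MDSC arrays alone and so had to differ between groups, and the count of passing members supports nothing. Signals of different genes are not set against each other, since probe sets differ in brightness. For the same reason, linear signals summed over a marker list are weighted to its brightest probe sets.

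The sorts and sets were checked before the members. Ly6c2 and Itgam, which encode the Ly6C and CD11b antigens of the MDSC sort, averaged 12.69 and 10.32 on MDSC arrays. Cd34 averaged 11.28 on GFE, 7.27 on GFK, 5.92 on RB and 7.19 on GFW arrays. Ly6g, an antigen of the depleted lineages, averaged 4.22 on GFE, 12.08 on GFK, 6.28 on RB and 12.19 on GFW arrays. The Ly6g signal of GFK and GFW goes against the Ly6G depletion that their labels state, and the Cd34 signal of RB, near the middle of its arrays, goes against the CD34 selection. RB and GFW also differ widely although their labels match, so the groups are called by their title codes and the members in MDSC are set against each of these sets alone. Nos2 was not lower on arrays labelled iNOS knockout: it averaged 8.89 ± 0.05 on GFK and 8.28 ± 0.17 on GFW arrays (SD, n = 3 each). Which part of Nos2 the allele removes and which part the probe set covers is not known from the sources used here, so that value checks nothing about the label. The prefix of the sample code in the titles is shared by GFE, GFK and GFW and differs for MDSC and for RB. The group and the sample set thus cannot be told apart in comparisons of MDSC with the others or of RB with GFE, GFK or GFW.

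On the arrays of cells grown with IL-13, the chemokine, lectin receptor and protease genes stood far above all other groups. The transcription factor gene Tfec was also highest there, by 1.64 log2 over the next group, GFE. Ccl17, Mmp12 and Mgl2 were at background elsewhere, Mrc1 and Tfec had intermediate levels in some mobilised or cultured cells, Chil3 was as bright on RB as on MDSC arrays within the error, and Retnla was at background throughout. The plot of members by array shows these patterns.

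**Figure D1:**
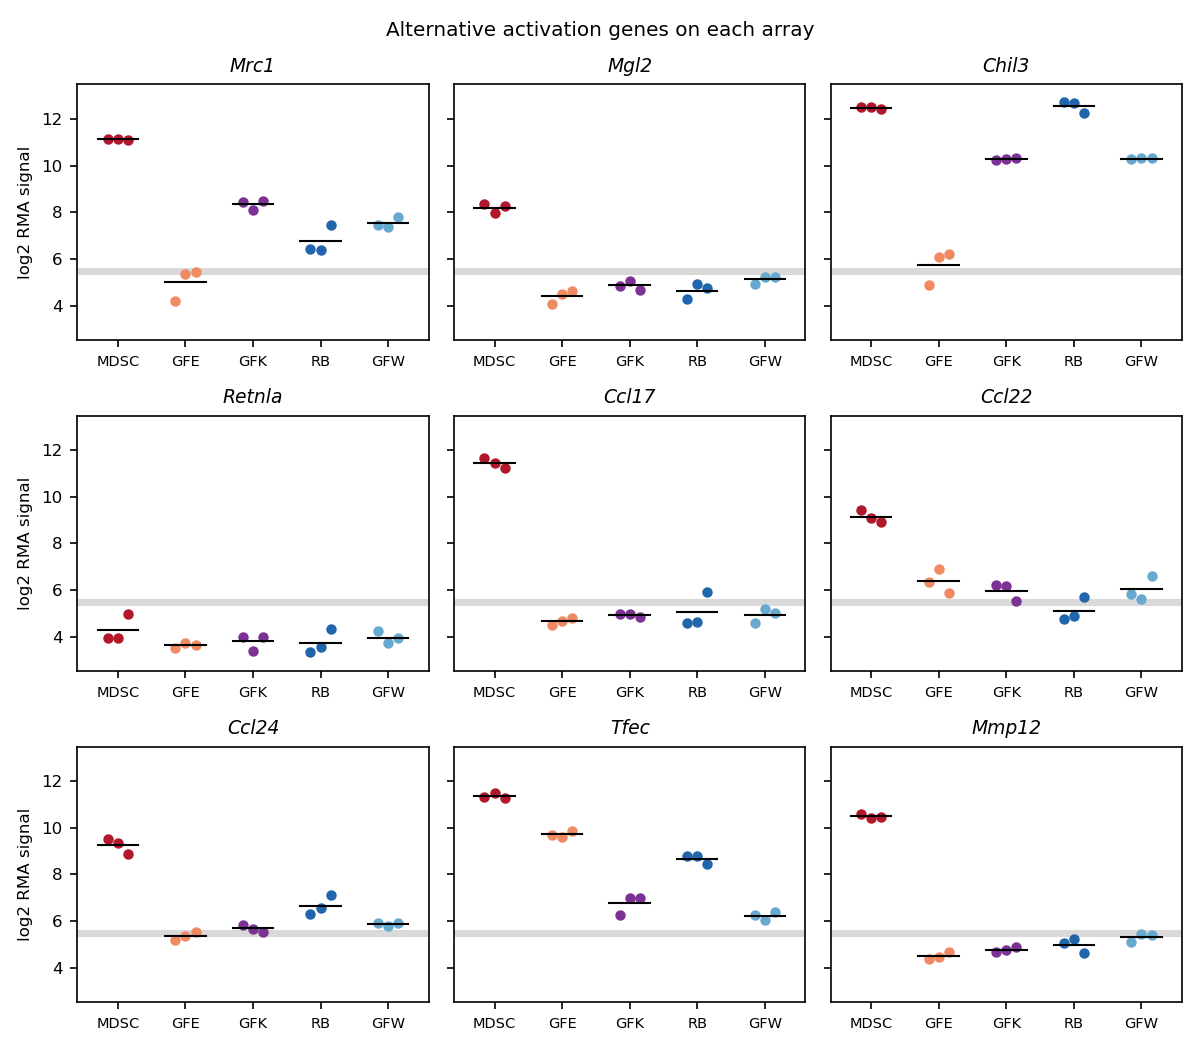
Log2 signal of the 9 members on each of the 15 arrays, by group (MDSC, GFE, GFK, RB, GFW), with 1 point per array and a line at the mean of 3 arrays. The grey band is the range of the arrays' 40th percentiles (5.34 to 5.58), and Retnla lies under it on every array, while Ccl17, Mmp12 and Mgl2 rise above it on the 3 MDSC arrays (Ccl17 also on 1 RB array).

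Ccl17 and Ccl22 encode the chemokines TARC and MDC, both ligands of the receptor CCR4 on T helper 2 and regulatory T cells, and they lie close together on chromosome 8. Ccl17 had signals of 11.66, 11.44 and 11.22 on MDSC arrays, 4.49, 4.67 and 4.81 on GFE, 4.98, 4.98 and 4.86 on GFK, 4.57, 4.63 and 5.91 on RB, and 4.59, 5.20 and 4.99 on GFW arrays. The MDSC arrays lay apart from all others, and the third RB array was the single one outside MDSC above background. In limma's fit Ccl17 was higher on MDSC than on RB arrays by 6.40 ± 0.27 (log2, SE), at least 59.0-fold, with an adjusted p of 2.25e-11. A fold is written as "at least" where the lower group's mean was under background. It is then taken against each array's background level or own signal, whichever is higher. The difference was at least 59.4-fold against GFW (adjusted p = 1.44e-11) and at least 66.6-fold against GFE (adjusted p = 1.22e-11). Because whole populations were measured, fewer expressing cells and less RNA per cell cannot be told apart here or below.

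Ccl22 had signals of 9.45, 9.09 and 8.90 on MDSC arrays, 6.34, 6.92 and 5.88 on GFE, 6.23, 6.15 and 5.52 on GFK, 4.77, 4.86 and 5.71 on RB, and 5.84, 5.63 and 6.61 on GFW arrays. Unlike Ccl17, it stood somewhat above background in GFE, GFK and GFW, and the MDSC arrays again lay above every other array. The difference of MDSC arrays was 4.03 ± 0.31 (log2, SE) from RB, at least 12.6-fold, 8.70-fold from GFW and 6.81-fold from GFE, with adjusted p-values of 2.49e-08, 2.95e-07 and 2.75e-06 in limma's fit. Below MDSC, GFE, GFW and GFK followed in that order of means without called differences between neighbours, and RB came last.

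The start regions of Ccl17 and Ccl22 are printed because the 2 genes share a locus and a high level in MDSC. RefSeq's GRCm38.p6 places these windows, from 250 bases before to 50 bases after the start, on the plus strand of chromosome 8, at chr8:94810203-94810502 for Ccl17 and chr8:94745434-94745733 for Ccl22. Capitals mark matches, on either strand, to 3 motifs. The STAT6 palindrome is TTC, any 4 bases and GAA. The STAT palindrome is TTC, any 3 bases and GAA. The PU.1 core is GAGGAA, or TTCCTC on the other strand.
Ccl17: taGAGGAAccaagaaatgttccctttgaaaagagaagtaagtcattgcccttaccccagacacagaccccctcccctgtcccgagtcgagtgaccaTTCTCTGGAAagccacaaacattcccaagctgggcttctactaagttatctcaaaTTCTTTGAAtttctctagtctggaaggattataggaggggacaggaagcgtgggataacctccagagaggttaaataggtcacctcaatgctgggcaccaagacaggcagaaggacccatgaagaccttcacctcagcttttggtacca
Ccl22: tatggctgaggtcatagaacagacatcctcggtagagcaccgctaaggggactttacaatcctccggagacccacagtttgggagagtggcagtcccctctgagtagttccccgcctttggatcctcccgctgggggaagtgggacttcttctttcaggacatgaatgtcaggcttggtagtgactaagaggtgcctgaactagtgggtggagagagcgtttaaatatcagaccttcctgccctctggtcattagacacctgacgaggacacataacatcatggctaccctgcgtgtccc
Ccl17 holds 1 match to each motif, with first bases at position -154 for STAT6, -99 for STAT and -248 for PU.1, counted from the start. No letters of the 3 motifs are in the Ccl22 window. No matches overlapped. Over 32851 mouse promoter windows of equal length, 6.95% held the STAT6 palindrome, 8.3% the STAT palindrome and 28.3% the PU.1 core. A match describes the sequence and shows no binding.

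Ccl24 encodes eotaxin-2, a chemokine for eosinophils that acts on the receptor CCR3. Its signals were 9.54, 9.36 and 8.89 on MDSC arrays, 5.20, 5.34 and 5.52 on GFE, 5.83, 5.66 and 5.54 on GFK, 6.31, 6.54 and 7.10 on RB, and 5.93, 5.77 and 5.89 on GFW arrays. MDSC arrays were highest and RB arrays came next, apart from the other 3 groups. MDSC exceeded RB by 2.61 ± 0.19 (log2, SE), 6.12-fold, GFW 10.5-fold and GFE at least 14.4-fold, with adjusted p-values of 1.12e-08, 3.60e-10 and 1.21e-10 in limma's fit. Ccr3 averaged 6.99 on GFK and 6.59 on GFW arrays, and between 3.46 and 4.12 in the other groups. Ccr4 did not pass the background filter. The MDSC mean of Ccr3, 4.12, was among those under background.

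Mrc1 encodes the mannose receptor CD206, a C-type lectin that takes up glycoproteins and is used as the surface marker of alternatively activated macrophages. Mrc1 had signals of 11.15, 11.16 and 11.13 on MDSC arrays, 4.18, 5.36 and 5.45 on GFE, 8.44, 8.13 and 8.49 on GFK, 6.41, 6.39 and 7.48 on RB, and 7.48, 7.38 and 7.79 on GFW arrays. The MDSC arrays were the most alike, and the uncultured mobilised cells kept an intermediate level that GFE cells did not have. MDSC exceeded RB by 4.38 ± 0.30 (log2, SE), 20.9-fold, GFW 12.1-fold and GFE at least 53.8-fold, with adjusted p-values of 7.06e-09, 4.19e-08 and 1.62e-10 in limma's fit.

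Mgl2 encodes CD301b, a galactose-type lectin of alternatively activated macrophages and of a dendritic cell subset. Its signals were 8.36, 7.98 and 8.29 on MDSC arrays, 4.06, 4.50 and 4.61 on GFE, 4.86, 5.06 and 4.68 on GFK, 4.26, 4.92 and 4.74 on RB, and 4.94, 5.22 and 5.21 on GFW arrays. All 12 arrays outside MDSC lay under background. In limma's fit Mgl2 was at least 7.06-fold higher on MDSC arrays than on RB (adjusted p = 1.99e-10), at least 6.33-fold higher than on GFW (adjusted p = 7.22e-10) and at least 7.09-fold higher than on GFE (adjusted p = 1.09e-10).

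Chil3 encodes Ym1, a chitinase-like lectin secreted by alternatively activated macrophages and also made by neutrophil and monocyte precursors. Chil3 had signals of 12.52, 12.51 and 12.44 on MDSC arrays, 4.86, 6.09 and 6.21 on GFE, 10.26, 10.28 and 10.36 on GFK, 12.75, 12.69 and 12.29 on RB, and 10.28, 10.36 and 10.32 on GFW arrays. MDSC and RB arrays overlapped at the top, GFK and GFW arrays formed a middle level, and GFE arrays were near background. MDSC differed from RB by -0.09 ± 0.25 (log2, SE), with a 95% interval from -0.61 to 0.44 and an adjusted p of 0.804 in limma's fit. MDSC exceeded GFW 4.51-fold (adjusted p = 1.35e-06) and GFE 109-fold (adjusted p = 5.30e-12). Of the 8 tested members, Chil3 was the single one whose MDSC arrays did not lie above all other arrays.

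Retnla encodes RELM alpha, also called FIZZ1, a secreted resistin-like protein and a widely used marker of IL-4 and IL-13 action in mouse macrophages. Retnla had signals of 3.94, 3.94 and 4.99 on MDSC arrays, 3.50, 3.71 and 3.65 on GFE, 3.99, 3.40 and 3.99 on GFK, 3.32, 3.54 and 4.33 on RB, and 4.22, 3.71 and 3.94 on GFW arrays. All were under background, and the MDSC range overlapped those of GFK, RB and GFW. Fitted without the filter, the MDSC arrays differed from RB by 0.56 ± 0.28 (log2, SE; adjusted p = 0.130 in limma), from GFW by 0.33 (adjusted p = 0.350) and from GFE by 0.67 (adjusted p = 0.105). A transcript at a low level is not shown to be absent by a signal under background.

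The windows of Chil3 and Retnla are printed for the member that did not differ beyond error between MDSC and RB and for the member under background. RefSeq's GRCm38.p6 places them at chr3:106167515-106167814 on the minus strand for Chil3 and at chr16:48842359-48842658 on the plus strand for Retnla, with the same motifs in capitals.
Chil3: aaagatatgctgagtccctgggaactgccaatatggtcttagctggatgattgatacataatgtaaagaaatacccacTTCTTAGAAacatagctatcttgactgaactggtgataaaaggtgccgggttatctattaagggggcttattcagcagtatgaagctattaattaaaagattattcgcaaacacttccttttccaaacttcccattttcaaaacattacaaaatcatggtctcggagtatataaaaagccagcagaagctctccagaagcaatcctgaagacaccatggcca
Retnla: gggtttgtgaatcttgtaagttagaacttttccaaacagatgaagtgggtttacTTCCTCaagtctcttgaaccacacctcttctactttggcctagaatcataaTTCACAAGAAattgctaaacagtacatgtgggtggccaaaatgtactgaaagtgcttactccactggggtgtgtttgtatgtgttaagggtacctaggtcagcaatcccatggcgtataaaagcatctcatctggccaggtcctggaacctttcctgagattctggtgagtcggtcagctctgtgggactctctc
Chil3 holds 1 match to the STAT palindrome, with its first base at position -172. Retnla, under background on all arrays, holds 1 match to the STAT6 palindrome, at -145, and 1 to the PU.1 core, at -196. Across the 8 members with a window in the table (not Ccl24), the STAT6 palindrome was found in Ccl17, Retnla and Tfec, the STAT palindrome in Ccl17 and Chil3, and the PU.1 core in 6 members (for Mmp12, in 1 of its 2 windows).

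Mmp12 encodes macrophage elastase, a secreted metalloproteinase that cleaves elastin. Its signals were 10.62, 10.45 and 10.49 on MDSC arrays, 4.38, 4.46 and 4.65 on GFE, 4.69, 4.75 and 4.87 on GFK, 5.04, 5.22 and 4.64 on RB, and 5.09, 5.45 and 5.42 on GFW arrays. The MDSC arrays stood far from the rest, and the 4 other groups had means under background. MDSC exceeded RB by 5.55 ± 0.14 (log2, SE), at least 35.0-fold, GFW at least 31.4-fold and GFE at least 35.2-fold, with adjusted p-values of 2.97e-13, 2.39e-13 and 4.71e-14 in limma's fit. The more upstream of 2 Mmp12 windows in the table, at chr9:7344147-7344446 on the plus strand of GRCm38.p6, is printed as that of a member seen above background in MDSC alone.
Mmp12: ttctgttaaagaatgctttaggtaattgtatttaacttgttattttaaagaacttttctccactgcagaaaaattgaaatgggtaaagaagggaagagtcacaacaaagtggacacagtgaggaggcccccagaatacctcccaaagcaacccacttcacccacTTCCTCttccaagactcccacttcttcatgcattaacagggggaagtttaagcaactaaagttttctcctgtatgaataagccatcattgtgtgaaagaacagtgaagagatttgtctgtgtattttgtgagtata
It holds 1 match to the PU.1 core, on the minus strand, at position -86. The other Mmp12 window, at chr9:7347124-7347423, holds 0 matches.

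Tfec encodes a transcription factor of the MiT family, found mainly in myeloid cells and raised by IL-4 in mouse macrophages. Tfec had signals of 11.34, 11.49 and 11.27 on MDSC arrays, 9.68, 9.63 and 9.88 on GFE, 6.28, 7.01 and 6.97 on GFK, 8.81, 8.79 and 8.43 on RB, and 6.25, 6.06 and 6.37 on GFW arrays. MDSC, GFE and RB arrays formed 3 separate levels above the overlapping GFK and GFW arrays. MDSC exceeded GFE by 1.64 log2, or 3.11-fold (adjusted p = 1.46e-06 in limma). It exceeded RB 6.43-fold (adjusted p = 3.36e-09) and GFW 35.2-fold (adjusted p = 1.79e-12). GFE in turn exceeded RB by 1.05 log2 (adjusted p = 8.67e-05). Its relatives did not share this order. Mitf averaged 8.25 on MDSC, 7.38 on GFE, 7.80 on GFK, 8.56 on RB and 7.60 on GFW arrays. Tfe3 was lower on MDSC than on RB arrays by 0.93 log2 (adjusted p = 1.77e-06), and Tfeb differed from RB by -0.16 (adjusted p = 0.302).

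Counted by comparison, 7 of the 8 tested members were higher on MDSC than on RB arrays and none lower, where 27.4% of all 14822 genes were called higher and 20.7% lower at an adjusted p under 0.05. Against GFW, 8 were higher, where 32.3% of genes were higher and 30.0% lower. Against GFE, 8 were higher, where 16.6% of genes were higher and 18.9% lower. The members' median difference was 3.80 against RB, 3.50 against GFW and 4.96 against GFE (log2), beside medians over all genes of 0.04, -0.08 and -0.00346. Against GFK, 8 were higher, where 32.5% of genes were higher and 28.4% lower. In the pairs used solely to order neighbouring levels, 35.4% of genes were higher and 30.5% lower in GFE minus GFK, and 25.2% and 25.4% in GFK minus RB. Mgl2, Ccl17 and Mmp12 passed the filter through the MDSC arrays alone, so their calls in these comparisons were largely fixed in advance. The members were also chosen with earlier results of these data known. The counts and medians are thus a description and no support. Of the 5 members that passed the filter also without MDSC arrays, 4 were higher than in RB, and all were higher than in GFW, GFE and GFK.

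**Figure D2:**
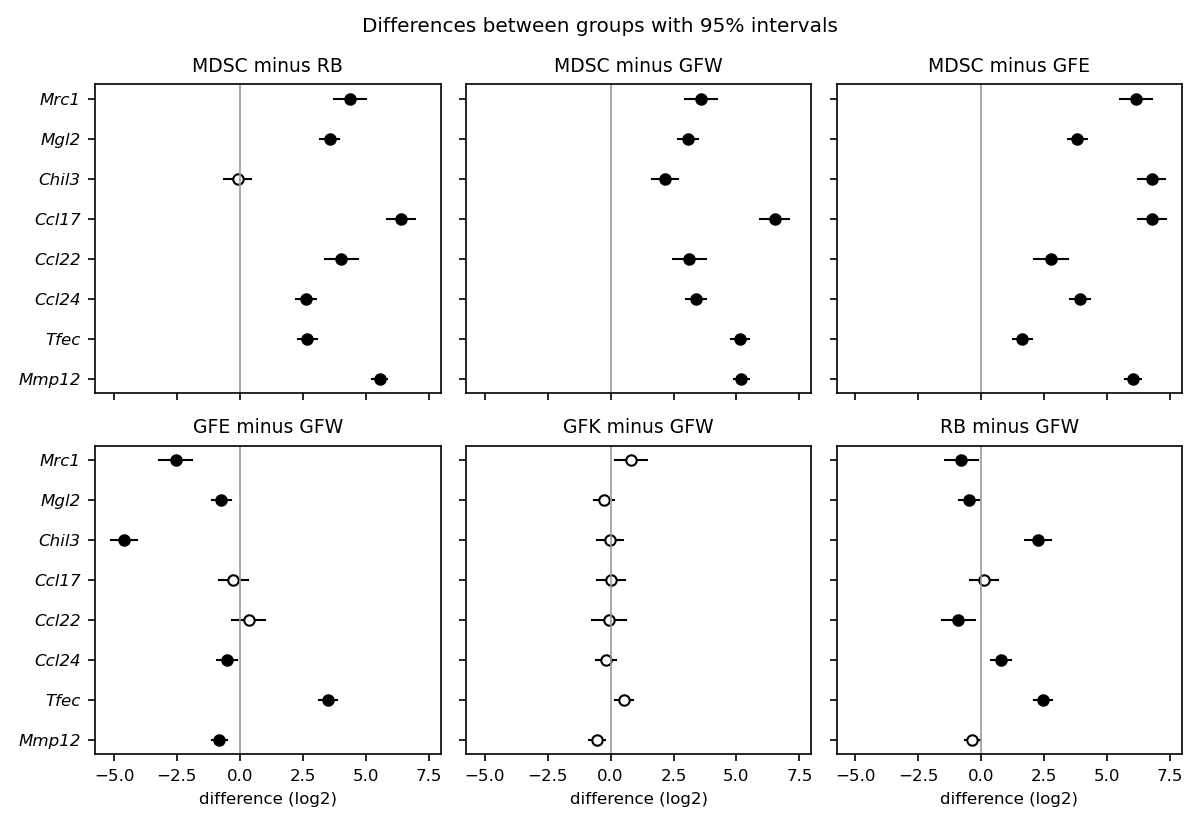
Differences in log2 signal of the 8 tested members in 6 comparisons, first group minus second, with 95% intervals from limma. Filled circles passed an adjusted p of 0.05 and open circles did not: in MDSC minus RB all but Chil3 lie right of 0, in GFK minus GFW all 8 are open.

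In culture with SCF and Flt3 ligand, without IL-13, Chil3 and Mrc1 were lower and Tfec was higher than in uncultured cells. GFE cells, which had SCF and Flt3 ligand for 3 days, were set against the uncultured GFW cells of the same sample set. Of the 8 tested members 1 was higher and 5 were lower, where 35.1% of all genes were higher and 31.9% lower. Tfec was higher on GFE arrays by 3.50 log2, 11.3-fold (adjusted p = 7.23e-11 in limma). Chil3 fell by 4.60 log2, 24.2-fold (adjusted p = 1.75e-10), and Mrc1 was at least 4.45-fold lower (adjusted p = 1.88e-06). Mgl2 and Mmp12 were called lower by differences of -0.73 and -0.82 log2 (adjusted p = 0.00225 and 1.28e-04) between groups that both averaged under background, so no fold is given. Ccl24 differed by -0.51 log2 (adjusted p = 0.0253), a call that was lost when each array was scaled to its median (adjusted p = 0.0831). Ccl22 differed by 0.35 log2, with a 95% interval from -0.31 to 1.01, and Ccl17 was at background in both groups. The members' median was -0.62 and that of all genes -0.06. The RB set differs from GFE in the title prefix as well as in culture. Against it, GFE arrays had 2 of 8 tested members higher and 4 lower, where 31.0% of genes were higher and 23.1% lower. There Chil3 differed by -6.86 log2 (adjusted p = 2.22e-12) and Mrc1 by -1.76 (adjusted p = 1.21e-04), while Ccl22 was higher by 1.27 (adjusted p = 0.00258). All 11 tested neutrophil markers were lower on GFE arrays, with a summed linear signal of 1514 to 1667 on GFE arrays and 49499 to 51230 on GFW arrays. Their part in the loss of Chil3 and Mrc1 signal was not tested.

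Between arrays labelled iNOS knockout and wild type, no member passed. In GFK minus GFW, limma called 0 of 8, where 1.30% of genes were called higher and 0.317% lower, and 3 members had an unadjusted p under 0.05. These were Mrc1, Tfec and Mmp12. Mrc1 was 0.80 log2 higher on GFK arrays (95% interval from 0.16 to 1.45, adjusted p = 0.273), and every GFK array lay above every GFW array. Tfec differed by 0.53 (0.16 to 0.90, adjusted p = 0.185), with overlapping arrays. It passed when the first GFK array, the lowest of its group, was left out (0.76 log2, adjusted p = 0.0178). Mmp12 differed by -0.55 between means that were both under background (adjusted p = 0.0785). For Chil3 the difference was -0.02, with an interval from -0.54 to 0.51, and for Ccl22 it was -0.06, with an interval from -0.72 to 0.60.

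Between the RB and GFW sets, equal in their labels, members were called in both directions, as were many of all genes. Of the 8 tested, 3 were higher and 3 lower on RB arrays, where 25.8% of all genes were higher and 26.5% lower. Chil3 was 2.26 log2 higher on RB, 4.78-fold (adjusted p = 1.87e-06 in limma), Tfec 2.45 log2 or 5.48-fold (adjusted p = 1.42e-08), and Ccl24 0.78 log2 or 1.72-fold (adjusted p = 0.00263). Mrc1, Mgl2 and Ccl22 were lower by -0.79, -0.49 and -0.91 log2, with adjusted p-values of 0.0392, 0.0350 and 0.0225. All 3 of these calls were lost when the first RB array was left out (adjusted p = 0.145, 0.184 and 0.0917) and when the third GFW array was (0.124, 0.0947 and 0.121). Mgl2 also averaged under background in both sets. The third RB array stood apart within its group for Mrc1, Ccl17, Ccl22 and Ccl24, toward the MDSC levels. Without it the difference of MDSC from RB was 6.84 log2 for Ccl17, 4.33 for Ccl22 and 2.84 for Ccl24, still as called. The 7 monocyte markers were all higher on RB arrays, with summed linear signals of 24180 to 25624 on RB and 4723 to 5390 on GFW arrays, and 9 of 11 neutrophil markers were lower. Their part in the Chil3 and Tfec differences was not tested.

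More receptor and signalling genes were lower than higher on MDSC arrays against RB and GFW, and more were higher than lower against GFE. Of 12 listed, 9 were tested. On MDSC arrays 2 were higher and 6 lower than on RB, where 27.4% of all genes were higher and 20.7% lower. The median was -0.57 beside 0.04 over all genes. Against GFW, 3 were higher and 6 lower, where 32.3% of all genes were higher and 30.0% lower. The median was -0.93 beside -0.08. Against GFE, 5 were higher and 2 lower, where 16.6% of all genes were higher and 18.9% lower. The median was 0.71 beside -0.00346. Il4ra, the alpha chain that both cytokines use, averaged 8.92 ± 0.03 on MDSC, 8.87 ± 0.10 on GFE, 11.52 ± 0.03 on GFK, 9.75 ± 0.31 on RB and 11.56 ± 0.03 on GFW arrays (SD, n = 3 each). It was lower on MDSC than on RB arrays by 0.83 log2, 1.78-fold (adjusted p = 4.84e-05 in limma), and 6.20-fold lower than on GFW. Il13ra1, the second chain of the IL-13 receptor, averaged 7.51 ± 0.20 on MDSC, 5.24 ± 0.14 on GFE, 11.45 ± 0.02 on GFK, 10.04 ± 0.26 on RB and 11.48 ± 0.06 on GFW arrays. The cells grown with IL-13 thus had a 5.77-fold lower signal of this chain than RB (adjusted p = 3.42e-10), while GFE cells were under background for it. Stat6 was 1.67-fold lower on MDSC than on RB arrays (adjusted p = 5.20e-05), 2.16-fold lower than on GFW (adjusted p = 4.30e-07) and 1.64-fold higher than on GFE (adjusted p = 1.12e-04).

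Of the feedback inhibitors of cytokine signalling on the list, Cish and Socs1 were both higher in MDSC than in GFE, RB and GFW. Cish, which encodes an inhibitor induced through STAT5, averaged 10.71 ± 0.10 on MDSC, 7.67 ± 0.15 on GFE, 7.44 ± 0.11 on GFK, 7.14 ± 0.42 on RB and 6.76 ± 0.11 on GFW arrays. It was 11.9-fold higher on MDSC than on RB arrays (adjusted p = 6.73e-11 in limma) and 15.5-fold higher than on GFW (adjusted p = 1.62e-11). Socs1, an inhibitor of Janus kinases, was 3.94-fold higher than on RB (adjusted p = 1.97e-07) and 2.22-fold higher than on GFW (adjusted p = 4.85e-05). Its MDSC signals of 8.35, 8.35 and 8.02 overlapped the GFK signals of 8.13, 7.90 and 7.55, a difference of 0.38 log2 (95% interval from -0.0064 to 0.77, adjusted p = 0.0812).

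**Figure D3:**
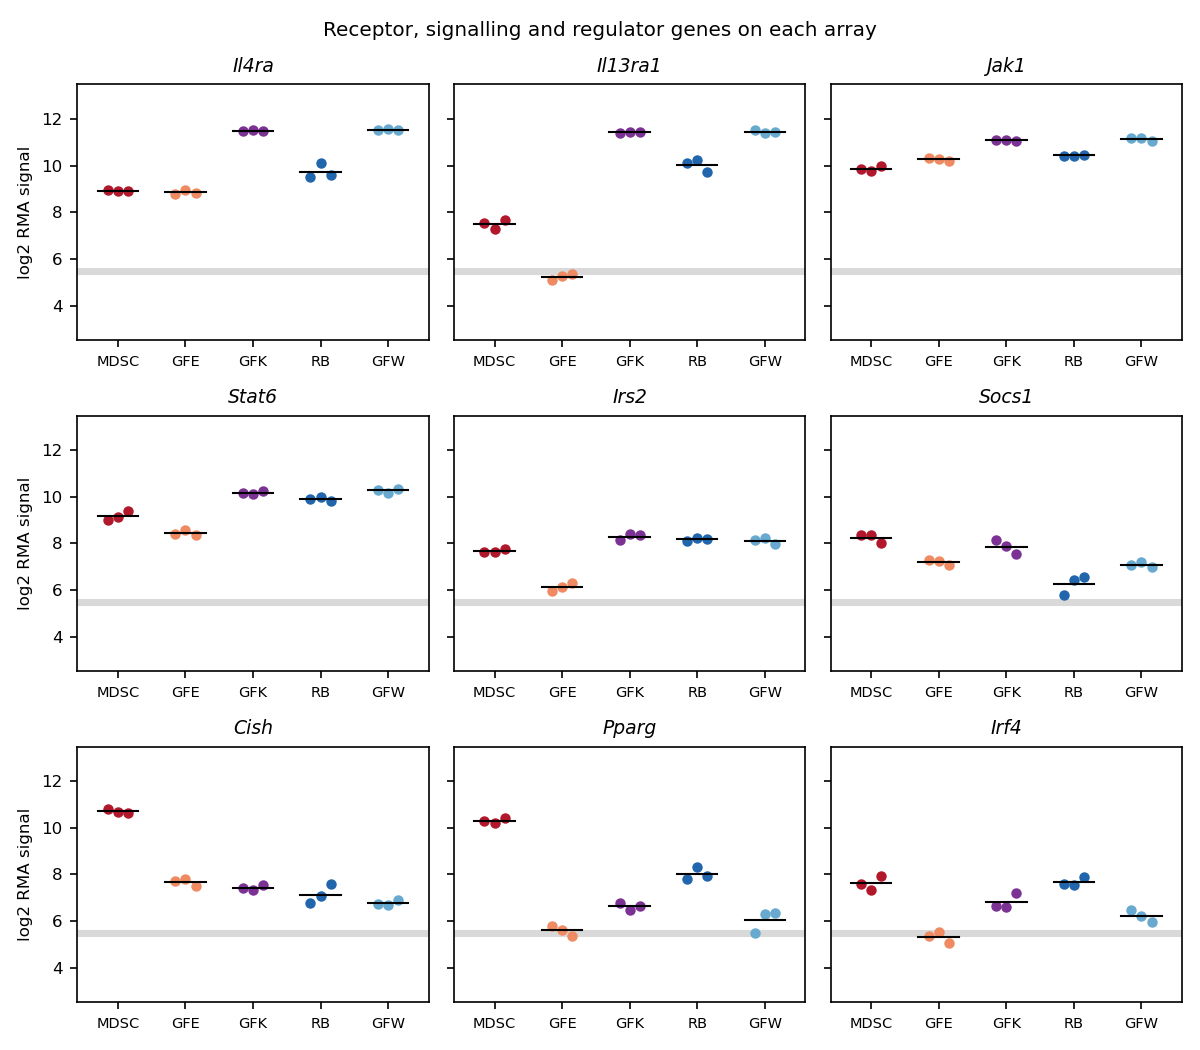
Log2 signal of 9 receptor, signalling and regulator genes on each array by group (MDSC, GFE, GFK, RB, GFW), with 1 point per array, lines at group means and a grey band at the arrays' 40th percentiles. Il4ra and Il13ra1 are higher on GFK, RB and GFW arrays than on MDSC arrays, while Cish and Pparg are highest on MDSC arrays.

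Of 7 regulators that work with STAT6, all tested, 3 were higher and 3 lower on MDSC than on RB arrays. Against GFW, 4 were higher and 2 lower, and against GFE, 5 were higher and 1 lower. Over all genes, 27.4% were higher and 20.7% lower than on RB, 32.3% and 30.0% against GFW, and 16.6% and 18.9% against GFE. Pparg, a lipid-sensing nuclear receptor, averaged 10.32 ± 0.13 on MDSC, 5.60 ± 0.22 on GFE, 6.63 ± 0.16 on GFK, 8.02 ± 0.26 on RB and 6.06 ± 0.49 on GFW arrays. Its MDSC signal was 4.90-fold that of RB (adjusted p = 1.17e-07 in limma) and 19.2-fold that of GFW (adjusted p = 7.28e-11). Irf4 differed by -0.06 log2 from RB (adjusted p = 0.827) and was 1.41 log2 higher than on GFW (adjusted p = 1.05e-05). Klf4 was lower than on RB arrays by 0.60 log2 (adjusted p = 0.00431) and 3.42-fold higher than on GFW (adjusted p = 5.84e-08).

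Among 18 other alternative activation genes, 15 were tested, and 9 were higher and 3 lower on MDSC than on RB arrays. There 27.4% of all genes were higher and 20.7% lower. The median was 0.91 beside 0.04 over all genes. Against GFW, 8 were higher and 5 lower, where 32.3% of all genes were higher and 30.0% lower. Slc7a2, a cationic amino acid transporter that supplies arginine, averaged 7.62 ± 0.11 on MDSC arrays and at most 4.70 in any other group, at least 4.71-fold higher than on RB (adjusted p = 3.22e-12 in limma) and at least 4.22-fold higher than on GFW (adjusted p = 4.31e-12). Arg1, which breaks down arginine and is a hallmark enzyme of this state and of MDSC, reached 6.72 ± 0.43 on MDSC arrays, against 5.80 ± 0.38 on RB, a 1.89-fold difference (adjusted p = 0.00116). Cdh1, the adhesion molecule E-cadherin, was 8.15-fold higher on MDSC than on RB arrays (adjusted p = 1.40e-10) but 1.72-fold higher than on GFW (adjusted p = 2.91e-04). Ch25h, a cholesterol hydroxylase, was 3.01 log2 higher than on RB (adjusted p = 2.91e-11) by the brighter of its 2 probe sets, and 1.67 log2 higher by their mean (adjusted p = 1.94e-08). Tgm2, a transglutaminase, went the other way, with 6.88 ± 0.03 on MDSC and 8.58 ± 0.18 on RB arrays (adjusted p = 1.92e-08). In GFK minus GFW, Tgm2 was higher by 1.21 log2 (adjusted p = 1.21e-04) and so was Il1rn, the IL-1 receptor antagonist, by 0.72 (adjusted p = 0.00254). Of 9 classical activation genes, 2 were higher and 5 lower on MDSC than on RB arrays (27.4% and 20.7% of all genes). Against GFW, 1 was higher and 4 were lower (32.3% and 30.0% of all genes).

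Of all 43 pathway genes, 35 were tested, with 14 higher and 13 lower on MDSC than on RB arrays. There 27.4% of all genes were higher and 20.7% lower. The pathway median was -0.16 beside 0.04 over all genes. Against GFW the pathway counts were 16 and 15, where 32.3% of all genes were higher and 30.0% lower. Against GFE they were 23 and 5, where 16.6% of all genes were higher and 18.9% lower. For GFE minus GFW they were 5 higher and 20 lower, where 35.1% of all genes were higher and 31.9% lower. Il4 and Il33 did not pass the filter and Il13 was near background in all groups.

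Relatives or partners on the lists lie next to Ccl17, Ccl22, Mgl2, Mmp12, Chil3 and Retnla. None lies next to Mrc1 or Tfec, and Ccl26, beside Ccl24, did not pass the filter. Cx3cl1, the gene of fractalkine, lies between Ccl22 and Ccl17 on chromosome 8. Its signals of 5.35, 5.54 and 5.89 on MDSC arrays were near background, and the difference from RB was 0.14 log2 (95% interval from -0.18 to 0.45). It was lower on MDSC than on GFW arrays by 0.37 log2 (adjusted p = 0.0393), a call that 8 of 13 alternatives did not keep. Clec10a, the neighbour and relative of Mgl2, averaged 5.63 on MDSC, 3.91 on GFE, 4.31 on GFK, 6.36 on RB and 4.21 on GFW arrays. It was higher on MDSC than on GFW arrays by 1.42 log2 (adjusted p = 1.97e-05 in limma) and than on GFE by 1.72 (adjusted p = 5.70e-06), as Mgl2 was. Against RB it differed by -0.73 (adjusted p = 0.00822, and 0.0502 without the third RB array), where Mgl2 was higher. Mmp13, next to Mmp12, averaged 5.88 on MDSC arrays and between 4.08 and 4.79 in the other groups. Chil4, next to Chil3, did not pass the filter. Retnlg, next to Retnla and a marker of neutrophils, averaged 4.12 on MDSC, 3.24 on GFE, 11.98 on GFK, 8.07 on RB and 12.08 on GFW arrays. The plot of loci shows the arrays of these members and relatives.

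**Figure D4:**
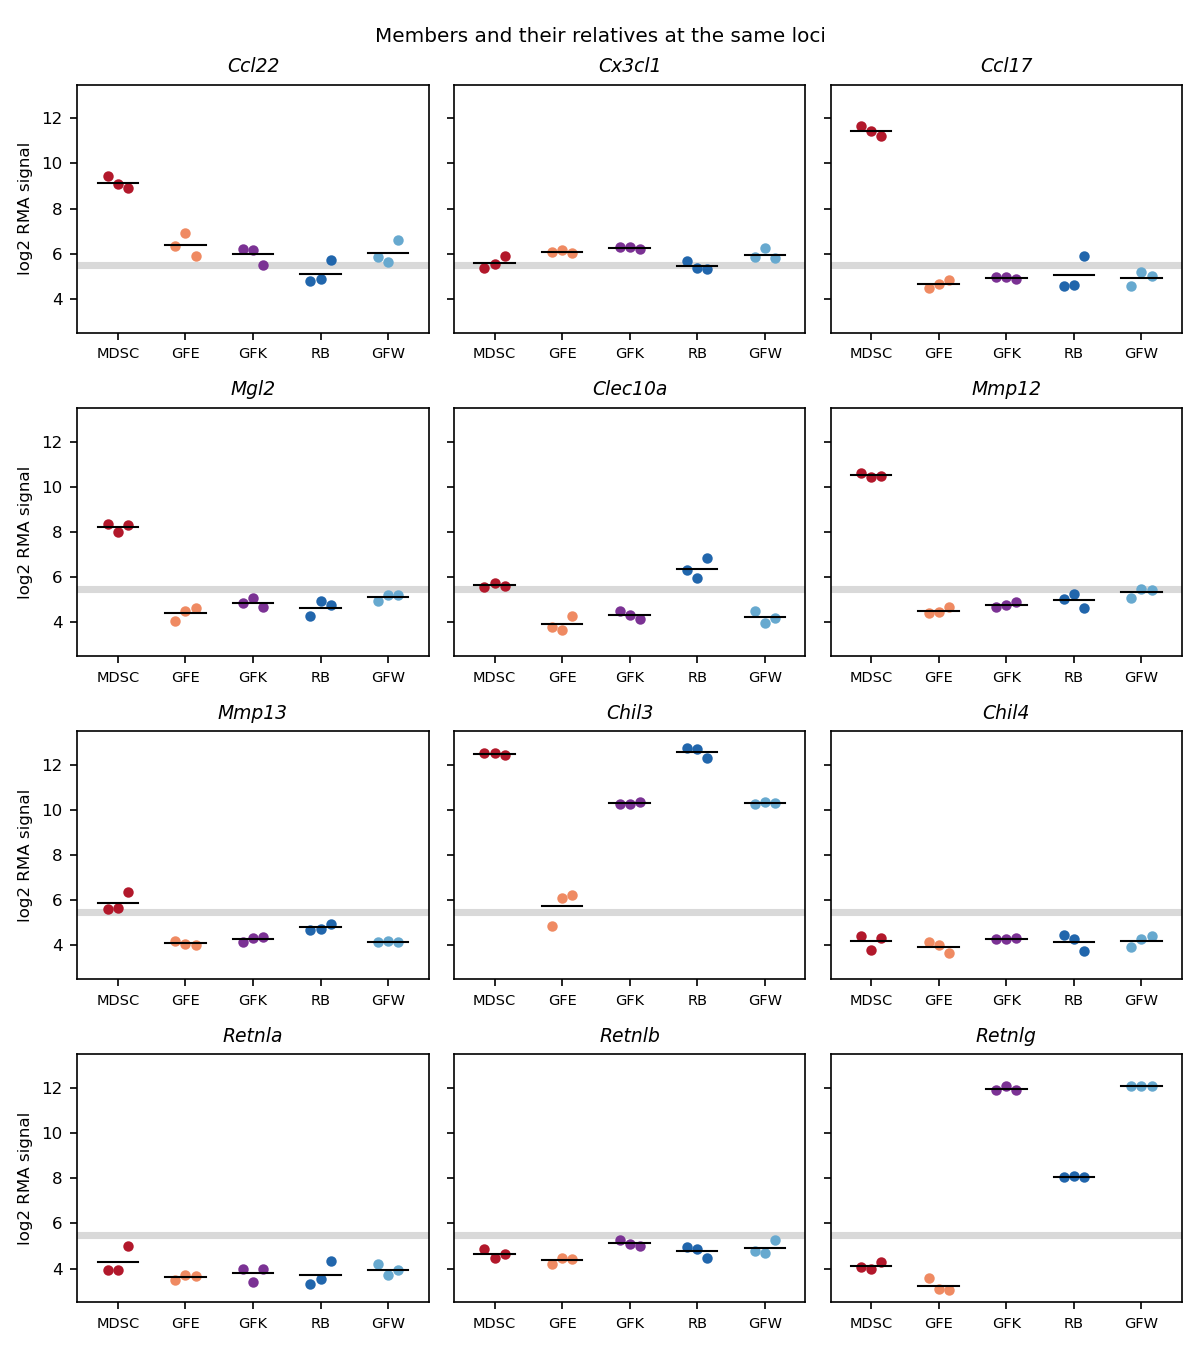
Log2 signal of 6 members and 6 relatives at their loci, by array and group (MDSC, GFE, GFK, RB, GFW), with 1 point per array, lines at means and a grey band at the arrays' 40th percentiles. Cx3cl1 stays near the band on the MDSC arrays where Ccl22 and Ccl17 on either side are far above it, and Retnlg is high on GFK and GFW arrays where Retnla is under the band.

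Likeness to other genes is given as a description over 15 arrays, which share groups, so that between-group differences dominate it. Among 13578 genes, the most like Mmp12 were AU022793 (Pearson r = 0.996), Plet1 (0.992) and Ccn3 (0.992). For Ccl17 they were Dab2 (0.993), Slc7a2 (0.991) and Awat1 (0.991), and for Mgl2 Pknox2 (0.989), Ccn3 (0.988) and Ccl7 (0.986). Chil3 had Psap (0.985), Cd68 (0.983) and Stom (0.982) beside it, and Tfec had Psmb6 (0.99), Stt3b (0.988) and Etf1 (0.988). Among the members, Ccl17 and Mmp12 had r = 0.984 with each other, while Chil3 had r = 0.173 with Ccl22 and 0.046 with Tfec.

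Markers of other cell types moved with the MDSC comparisons, in directions that depended on the comparison. Over all genes, 27.4% were higher and 20.7% lower on MDSC than on RB arrays. These shares were 32.3% and 30.0% against GFW, and 16.6% and 18.9% against GFE. The 10 tested macrophage markers included 0 higher and 6 lower on MDSC than on RB arrays, with summed linear signals of 5436 to 6035 on MDSC and 6789 to 7120 on RB arrays. Cd68, a general phagocyte gene that weighs heavily in these sums, was bright at 12.03 on MDSC and 11.91 on RB arrays. Vsig4, Timd4 and Cd5l of tissue-resident macrophages were under background on MDSC arrays at 3.83, 4.81 and 4.19. Cd5l was also under background on RB and GFE arrays, at 4.79 and 4.22. Other genes of the list were above background on MDSC arrays, such as Adgre1 at 9.65, C1qa at 7.06 and C1qb at 6.22. Their RB means were higher, at 10.64, 7.93 and 9.30. Of 7 monocyte markers 5 were lower, with sums of 8371 to 8979 on MDSC and 24180 to 25624 on RB arrays. All 7 progenitor markers were higher, with sums of 10248 to 11092 on MDSC and 741 to 878 on RB arrays. Of 10 tested dendritic cell markers, 3 were higher and 4 lower, with sums of 2205 to 2350 on MDSC and 2412 to 3769 on RB arrays. Of these, Flt3 and Xcr1 averaged 5.39 and 5.21 on MDSC arrays, at or under background. Ccr7 of migrating dendritic cells averaged 7.72 on MDSC arrays, and Batf3 averaged 8.80 on MDSC and 8.53 on RB arrays. Granulocyte markers were split, with 6 of 11 neutrophil markers higher and 4 lower than on RB, 3 of 5 tested eosinophil markers higher, and 3 of 4 tested basophil and mast cell markers higher. Prg2, an eosinophil granule gene, averaged 8.95 on MDSC and 5.12 on RB arrays. Of 5 tested markers of T cells and type 2 innate lymphoid cells, 1 was higher, Il7r, at 9.06 on MDSC and 4.35 on RB arrays. Against GFW, MDSC arrays had 1 of 10 macrophage markers higher and 7 lower, 3 of 7 monocyte markers higher and 2 lower, and 3 of 11 neutrophil markers higher and 7 lower. There 5 of 7 progenitor markers were higher and 1 was lower, 3 of 10 dendritic cell markers were higher and 6 lower, and all 4 tested B cell markers were lower. In the same comparison, 3 of 5 tested eosinophil markers were higher and 2 lower. Of 4 tested basophil and mast cell markers, 2 were higher and 2 lower. Their summed linear signals were 564 to 631 on MDSC and 3146 to 3493 on GFW arrays. Neutrophil markers stood in between GFE and GFW on MDSC arrays, with summed linear signals of 20818 to 22128 on MDSC, 1514 to 1667 on GFE and 49499 to 51230 on GFW arrays. Against GFE, 9 of 11 neutrophil markers were higher and 1 lower, 5 of 7 monocyte markers were higher and 2 lower, 4 of 10 macrophage markers were higher and 1 lower, and 4 of 7 progenitor markers were higher and 3 lower. The part of these markers in the members' differences was not tested.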

How the data were processed

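Total RNA of 15 samples, 3 in each of 5 groups taken from the labels, was hybridised to 1 array each. Per the labels and the submitters' processing notes, the authors deposited log2 values made with oligo and RMA, a method of background correction, quantile normalisation and summary per probe set. The quantile step gives the arrays nearly equal distributions, so a shift of most genes in a group would be partly removed. Neither the tool versions nor the annotation's genome build is given in the sources used here.

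Of 41345 probe sets, 23521 had 1 gene symbol, 1814 several and 16010 none. Those with 1 symbol were used, 23328 of them matching RefSeq's GRCm38.p6 by gene identifier. They covered 22180 genes, each represented by its probe set of highest mean signal. Genes above their array's 40th percentile on at least 3 arrays were kept (14822), and 7358 were removed. A mean per group was fitted to all 15 arrays with limma 3.58.1 (lmFit, eBayes) in R 4.3.3, with 10 residual and 5.33 prior degrees of freedom. P-values are 2-sided and Benjamini-Hochberg adjusted over all 14822 genes, and a gene was called under 0.05. Standard errors and 95% intervals are limma's. The number of arrays, 3 per group, limits the precision. Comparisons share arrays and are not independent. The fit was tested on simulated data. Promoter windows came from RefSeq, and motifs, figures and tables were made with Python 3.11.15, pandas 2.3.3, numpy 2.4.6 and matplotlib 3.10.9.

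The members and gene lists were chosen with earlier results of these data known. The genes named are the members, genes of the lists, the genes next to each member, and the 3 genes most like it by Pearson r, leaving out predicted gene models. Alternatives were no filter, a filter at the 60th percentile, each array minus its median, quantile normalization again, the mean of a gene's probe sets, eBayes with trend and robust settings, a fit of the 2 groups compared, a replicate block, and leaving out each replicate. Il2rg had no probe set of 1 symbol and was not analysed here.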

Additional observations from a re-analysis of the deposited data

How the results depend on the processing

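The members called higher on MDSC arrays, 7 against RB, 8 against GFW and 8 against GFE, stayed called under each alternative tried. The calls between RB and GFW were less stable. The 3 members lower on RB arrays became 1 when each array was scaled to its median, and between 0 and 3 when a replicate was left out. In GFK minus GFW the members called higher were between 0 and 1 when a replicate was left out. Members that were not called changed sign when a replicate was left out: Ccl17 in RB minus GFW ranged from -0.33 to 0.35 log2, and in GFK minus GFW Ccl17 ranged from -0.16 to 0.15, Chil3 from -0.048 to 0.0034 and Ccl22 from -0.26 to 0.23. The cause was not tested. Ccl24 in GFE minus GFW lost its call under median scaling (adjusted p = 0.0831), quantile normalization again (0.107) and without any one of 4 arrays, at an adjusted p of up to 0.0895. Mrc1, Mgl2 and Ccl22 in RB minus GFW reached adjusted p-values of 0.145, 0.184 and 0.121 with a replicate left out, and Mmp12 gained a call without the second RB array (0.0161) or the first GFW array (0.0219). Socs1 in GFK minus GFW lost its call under 9 of 14 alternatives. Scaling each array to its median moved the share of higher calls over all genes from 51.8% to 63.2% in MDSC minus GFW and from 52.3% to 63.8% in GFE minus GFW, and the median of all genes from -0.08 to 0.04 and from -0.06 to 0.07 log2.

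No pairing of the samples by the replicate numbers in the labels was detected. Of 30 same-numbered pairs, 0 had deviations correlated above 0.1 (r from -0.129 to 0.0966), and 4 of 15 arrays correlated best with their own number. With 3 arrays per group, these correlations cannot show that the samples were unpaired. With the replicate block the member counts were the same in all 6 comparisons, such as 7 higher in MDSC minus RB and 3 lower in RB minus GFW. Over all genes it left 160 higher and 42 lower in GFK minus GFW, against 192 and 47 without it. Signals near background understate differences, which holds for every fold given as a lower bound.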
